A study of Mus musculus with 20 samples.

Results

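Messenger RNAs from mouse bone marrow that are captured by iron regulatory protein 1 (IRP1) were measured on 4 arrays of a series of 20: 2 pull-downs with IRP1 and 2 control pull-downs, chosen by their titles. All 45037 probe sets of the array other than the manufacturer's controls were examined. IRP1 is a cytosolic protein that binds a short RNA hairpin, the iron-responsive element (IRE), when cells are short of iron and works as an aconitase when they are not. Bound to an IRE near the start of the 5′ untranslated region (UTR), it blocks translation, as in the ferritin mRNAs. Bound to IREs in the 3′ UTR, it protects the mRNA from decay, as in the transferrin receptor mRNA. Marrow is where red cells are made, and erythroid precursors take up most of the iron the body uses each day.

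The marrow RNA was pooled from 6 C57BL6/J mice, female and male mixed, aged 8 to 10 weeks and kept on an iron-normal diet. No allele was altered, and both reactions share this RNA, the rabbit polyclonal antibody against IRP1 and the array procedure. Each reaction took 50 µg of total RNA. The IRP1 reaction also received recombinant His-tagged IRP1 made in E. coli, which the control reaction lacked according to the titles and protocols (1 label field names the protein for the controls as well). About 120 ng of recovered RNA was amplified in a two-cycle procedure and hybridized to the Affymetrix Mouse430_2 array. RNA was extracted with Trizol before IRP1 was added, so binding was measured in the tube and not inside marrow cells. Because RNA was pooled, p-values measure the spread between pull-downs and arrays, not between mice, and 2 arrays a group limit the precision. The remaining 16 arrays hold the same 2 reactions from duodenum, liver and spleen of mice fed below 10 mg iron per kg for 21 days from weaning, and from brain of iron-normal mice as old as those for marrow. Diet and age are therefore tied to tissue.

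Marker genes in the controls fit the marrow label for the lineages that dominate it. The mean log2 signal of 16 markers of neutrophils and their precursors was 12.38, against 5.32 to 7.36 in the controls of the other tissues, and that of 23 erythroid markers was 10.43, against 5.71 to 9.17. The 9 megakaryocyte markers averaged 9.57 and those of eosinophils, basophils and mast cells 8.33, both above every other tissue. Other lists did not single marrow out: B lineage markers averaged 8.44 (8.46 in spleen), stem and progenitor markers 7.65 (7.69 in spleen), monocyte and macrophage markers 8.70 (10.46 in spleen), T and NK cell markers 7.19 (8.40 in spleen) and stroma and osteoblast markers 7.23 (7.52 in liver), and osteoclast markers were also no higher than in liver (6.11). Hepatocyte (5.74), enterocyte (4.95), neuron and glia (5.82) and skeletal muscle (5.12) markers lay near the median signal of all probe sets in the marrow controls (5.51), and pancreatic acinar markers at 6.84. In such bulk RNA, fewer cells of a type and less RNA per cell cannot be told apart. Control array 1 stood somewhat apart: it correlated with the other 3 marrow arrays at r = 0.981 to 0.985 across probe sets, while those 3 correlated with each other at 0.991 to 0.992. Its hybridization controls lay 0.74 below the median of the 20 arrays on the log2 scale (log2 difference -0.74). Those of the others in marrow lay at -0.05 to 0.21. The counts, the calls it decides and the medians of many gene lists are therefore also given without it.

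With IRP1, the transferrin receptor, ferroportin, ferritin, the erythroid heme enzyme Alas2 and a group of mRNAs outside the classical IRE set came down together. In the limma fit over all 20 arrays, 57 of 45037 probe sets were called higher with IRP1 (0.127%) and 2 lower (0.00444%) at an adjusted p under 0.05. The log2 change, IRP1 mean minus control mean, had a median of 2.41 among the 57 and of 0.05 over all probe sets (SD 0.26). Of the 57, 56 changed at least 2-fold, 34 at least 4-fold and 12 at least 8-fold. They read 34 genes through 45 probe sets with 1 symbol, 4 carry several symbols and 8 carry none. In each of the 57, both IRP1 arrays lay above both controls, an arrangement found in 19% of all probe sets. Called probe sets were found at every level of control signal, from 3.77 to 13.50 (median 7.31).

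**Figure D1:**
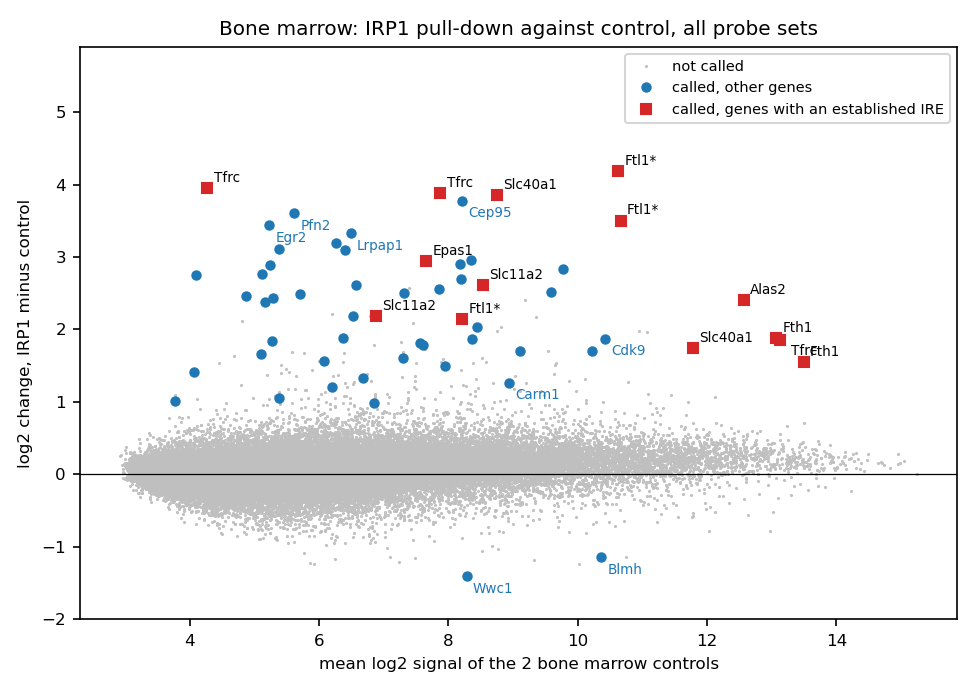
Each point is 1 of 45037 probe sets, with the mean log2 signal of the 2 bone marrow controls on the x axis and the log2 change (IRP1 minus control) on the y axis. Red squares are called probe sets of genes with an established IRE (Ftl1* marks probe sets that the annotation shares between Ftl1 and other symbols), blue circles the other called ones and grey points those not called; 57 called points lie above 0 and 2 below.

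How firmly these calls stand differs from gene to gene. Fits without 1 marrow array leave that reaction a single array, which is assumed to vary like the other groups. Without control array 1, 25 probe sets were called higher, all among the 57, and without IRP1 array 2, 21 were, again all among the 57. With each of 10 alternative settings and without each of the 4 marrow arrays in turn, 18 of the 57 kept their call. These 18 read 10 single genes (Tfrc, Slc40a1, Pfn2, Egr2, Lrpap1, Lpar1, Epas1, Trp53inp2, Slc11a2 and Ralgapa1), ferritin light chain through its shared probe sets, and 2 probe sets without a symbol. Leaving out control array 2 raised the counts to 118 higher and 180 lower.

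Ferritin stores iron in a shell of heavy and light chains, and both chains rose. The heavy chain Fth1 is the ferroxidase subunit. Its first probe set read 14.84 and 15.07 with IRP1 and 12.83 and 13.31 in the controls, in log2 signal. The second read 14.90 and 15.19 against 13.69 and 13.30. The groups did not overlap in either, and the IRP1 values were close to the top of the array, where the brightest probe set of each marrow array reached 15.24 to 15.35. The log2 change was 1.88 ± 0.27 (SE; limma adjusted p = 0.00403) and 1.55 ± 0.23 (adjusted p = 0.00759). The first was not called without control array 1 (log2 change 1.64, adjusted p = 0.149), and neither was called without IRP1 array 2.

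The light chain Ftl1, which helps to form the iron core, is covered by 3 probe sets, which the annotation shares with the pseudogene Ftl1-ps2, and 1 of them with Mir692 genes too. The brightest went from 10.38 and 10.87 in the controls to 14.69 and 14.94 with IRP1, a log2 change of 4.19 ± 0.44 (SE; 18.3-fold, limma adjusted p = 0.000203). The next went from 10.42 and 10.91 to 14.01 and 14.32 (log2 change 3.50 ± 0.41), and the dimmest from 8.44 and 7.99 to 10.39 and 10.31 (log2 change 2.14 ± 0.24). In all 3 the controls of either array lay far below both IRP1 arrays, and all 3 were called in every setting and without each array. How much of each signal comes from the pseudogene is not known.

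Slc40a1 is ferroportin, the exporter through which macrophages that recycle red cells return iron to plasma. Its dimmer probe set read 12.35 and 12.87 with IRP1 and 8.55 and 8.96 in the controls (log2 change 3.86 ± 0.30, SE; limma adjusted p = 9.29e-06). Its brighter one read 13.35 and 13.69 against 11.48 and 12.07 (log2 change 1.74 ± 0.27, adjusted p = 0.00989). The dimmer probe set kept its call throughout, and the brighter one was not called without control array 1 (log2 change 1.45, adjusted p = 0.28).

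Alas2 makes the first committed intermediate of heme in erythroid cells. Its probe set was bright in marrow controls (12.42 and 12.72), against 4.99 in duodenum, 7.78 in liver, 11.73 in spleen and 6.04 in brain controls on average. With IRP1 it read 14.77 and 15.19, a log2 change of 2.41 ± 0.39 (SE; 5.30-fold, limma adjusted p = 0.0133). Both IRP1 arrays exceeded both controls. The call was lost without control array 1 (log2 change 2.26), without either IRP1 array and with quantile normalization. It was also lost with a floor on dim values, although the floor left the log2 change of this bright probe set at 2.41. Over all settings the log2 change ran from 1.88 to 2.61.

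Epas1 encodes the hypoxia-inducible factor HIF-2 alpha, which drives erythropoietin and iron uptake genes. Its brighter probe set read 10.68 and 10.51 with IRP1 and 7.14 and 8.16 in the controls, a log2 change of 2.94 ± 0.34 (SE; limma adjusted p = 0.000456), and kept its call throughout. The dimmer one read 6.57 and 6.45 against 5.77 and 5.78, without overlap but also without a call (log2 change 0.74 ± 0.26, adjusted p = 0.867). In the other tissues the order was turned: the dimmer probe set changed by 1.68 to 2.26 and was called in all 4, and the brighter changed by 0.63 to 1.18 and was called in none. The brighter probe set's control signal was 7.65 in marrow on average and 11.40 to 11.99 in the other tissues. Whether the 2 probe sets read different transcripts was not tested.

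Taken by 1 probe set per gene, the brightest in marrow, all 4 measured genes with an established 5′ UTR IRE were called higher, with a median log2 change of 2.08. Without control array 1 that median was 2.00, and not all 4 calls stood in every fit, as given for each gene above. With the floor on dim values, the calls of Fth1, Slc40a1 and Alas2 by these probe sets were lost (limma adjusted p = 0.0559, 0.085 and 0.142). That of Epas1 was kept. By 1 probe set per gene in the main fit, 27 of 18193 genes (0.148%) were called higher and 2 (0.011%) lower, and the median over all genes was 0.07. Of 5 measured genes with an established or reported 3′ UTR IRE, 2 were called, with a median of 0.79.

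The transferrin receptor Tfrc, which takes iron-loaded transferrin into erythroid precursors, has several IREs in its 3′ UTR, and all 3 of its probe sets rose. The dimmest read 8.33 and 8.12 with IRP1 and 4.25 and 4.29 in the controls, a log2 change of 3.95 ± 0.18 (SE; limma adjusted p = 1.01e-08). These controls lay below the median signal, and with values below log2 6 set to 6 the change was 2.22, still called. The middle one read 11.65 and 11.86 against 7.63 and 8.12 (log2 change 3.88 ± 0.28, adjusted p = 4.01e-06). The brightest read 14.85 and 15.14 against 13.02 and 13.25 (log2 change 1.86 ± 0.28, adjusted p = 0.00728). Replicates of each reaction lay within 0.5 of each other in all 3, and no control reached an IRP1 array. The controls of the brightest probe set were already near the top of the scale, and its call was lost without control array 1 (log2 change 1.74, adjusted p = 0.165) and without IRP1 array 2.

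Slc11a2 is DMT1, which moves iron out of the endosome after transferrin uptake, and some of its transcripts end in a 3′ UTR with an IRE while others do not. Probe set 1452078_a_at read 10.99 and 11.31 with IRP1 and 8.42 and 8.64 in the controls (log2 change 2.61 ± 0.31, SE; limma adjusted p = 0.000749). Probe set 1426441_at read 9.01 and 9.12 against 6.597 and 7.17 (log2 change 2.18 ± 0.25, adjusted p = 0.000456). Both kept their calls throughout. A dim probe set stood at a log2 change of 1.23 ± 0.24 without a call (adjusted p = 0.0654), and with quantile normalization, a filter on dim probe sets, a variance trend or a replicate block it was called. The last of the 4, 1417584_at, read 8.62 and 9.77 with IRP1 and 9.21 and 9.41 in the controls: the groups overlapped, and the log2 change was -0.12 ± 0.32. The probe sets of this gene thus fell into called and uncalled ones at a like brightness.

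The other 3 genes with a reported 3′ UTR IRE were not called. Hao1, a peroxisomal oxidase of liver, read 4.94 and 4.59 with IRP1 and 4.12 and 3.83 in the controls (log2 change 0.79 ± 0.54), below the median signal throughout. The 3 probe sets of Cdc14a, a phosphatase, changed by at most 0.35 on the log2 scale (0.35, 0.22 and about 0), and the 4 of Cdc42bpa, a kinase that acts on the actin cytoskeleton, by -0.07 to 0.22. Their arrays overlapped or nearly so. Of the 5 genes whose IRE is a proposal without wider acceptance, 0 were called by limma. By their brightest probe sets, 0 passed an unadjusted p under 0.05. Among all genes, 0.148% were called higher and 3.63% were higher at that unadjusted p, so 0 of 5 is near both shares. The amyloid precursor gene App, well measured at 12.38 and 12.90 with IRP1 and 12.45 and 12.68 in the controls, changed by 0.07 ± 0.22. The prion gene Prnp (0.24 ± 0.24), the complex I subunit Ndufs1 (0.22 ± 0.23), the succinate dehydrogenase subunit Sdhb (-0.16 ± 0.30) and the dehydrogenase Bdh2 (-0.23 ± 0.24) were likewise within 1 SE of 0. Ftl1 on its own was not analysed here.

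**Figure D2:**
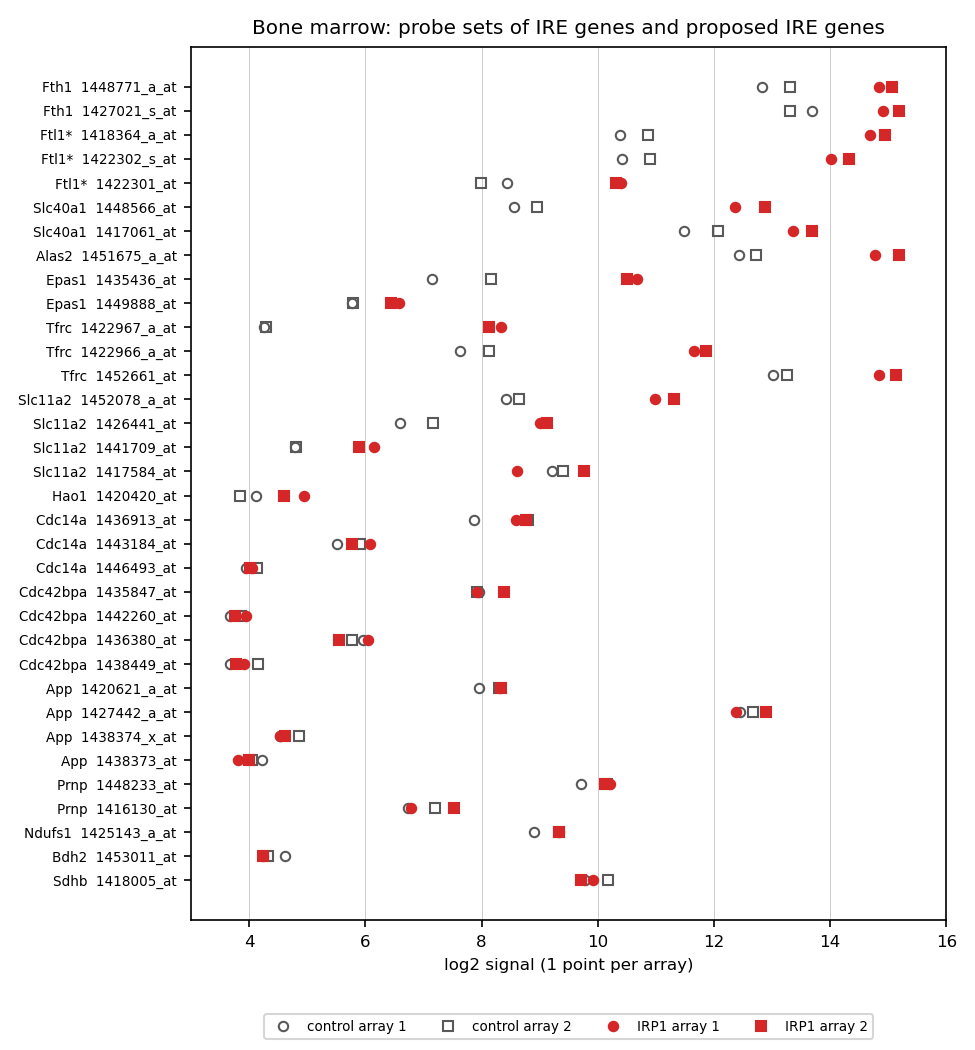
Log2 signal of each of the 4 bone marrow arrays (x axis) for each probe set of genes with an established, reported or proposed IRE (rows, gene and probe set), controls as open grey and IRP1 as filled red symbols, circles for array 1 and squares for array 2. Controls and IRP1 arrays are well apart in the ferritin, Slc40a1, Alas2 and Tfrc rows, for example 4.25 and 4.29 against 8.33 and 8.12 for the dimmest Tfrc probe set, and close together in those of Cdc14a, Cdc42bpa and the proposed genes.

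Outside the IRE lists, several mRNAs came down with IRP1 as strongly as the classical ones. The 16 genes considered first are those an earlier analysis of these same arrays had named as enriched, so their direction here is not independent evidence. Of the 16, 11 had a called probe set, and by the brightest marrow probe set 9 were called higher, with a median log2 change of 2.45. Without control array 1 that median was 2.48, and some of these calls were lost, as given for each gene below. The share of all genes called higher was 0.148%, and since marrow helped to choose the 16, the comparison is a description.

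Cep95, a centrosomal protein, read 11.52 and 12.44 with IRP1 and 7.91 and 8.50 in the controls, a log2 change of 3.78 ± 0.49 (SE; limma adjusted p = 0.00147). Its call was lost without control array 1 (adjusted p = 0.0568) and without IRP1 array 2, although the change without control array 1 was still 3.48. Of its other probe sets, 1 stood at 1.37 ± 0.30 without a call (adjusted p = 0.16) and a dim one at 0.09. Pfn2, profilin 2, which binds actin monomers, rose in all 3 of its probe sets. The leading one read 9.02 and 9.42 with IRP1 against 5.21 and 6.01 (log2 change 3.61 ± 0.34, adjusted p = 9.56e-05). The others changed by 2.76 ± 0.34 and 2.61 ± 0.34, with calls lost without IRP1 array 2. With values below log2 6 set to 6, the one at 2.76 changed by 1.88 and was not called (limma adjusted p = 0.204). Egr2, a zinc-finger transcription factor of the immediate-early class that also acts in macrophages and lymphocytes, read 8.54 and 8.78 with IRP1 and 5.25 and 5.20 in the controls (log2 change 3.44 ± 0.39), and 3.12 ± 0.41 by its second probe set, whose call was lost without control array 1 (adjusted p = 0.0568) and without IRP1 array 2. Its controls lay below the median signal, and its IRP1 arrays well above it. With the same floor of log2 6 its second probe set changed by 2.49 and was not called (limma adjusted p = 0.0697).

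Lrpap1, which escorts LDL receptor relatives through the endoplasmic reticulum, showed a split like that of Slc11a2. Probe set 1452148_at read 9.81 and 9.82 with IRP1 against 6.001 and 6.98 (log2 change 3.33 ± 0.37, SE), and 1426697_a_at read 11.36 and 11.25 against 8.51 and 8.18 (2.96 ± 0.33); limma called both throughout. The other two, 1 of them as bright (10.56 and 10.07 against 9.77 and 10.05), changed by 0.40 ± 0.27 and 0.80 ± 0.31 without a call. Lpar1, a receptor for lysophosphatidic acid, read 9.38 and 9.61 with IRP1 against 6.42 and 6.38 (log2 change 3.09 ± 0.30, adjusted p = 0.000111). A dimmer probe set changed by 1.85 ± 0.24, and another below the median signal by 0.24 ± 0.36. With values below log2 6 set to 6, the call at 1.85 was lost (log2 change 1.12, limma adjusted p = 0.265).

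The signalling adaptor Shc1 rose in marrow by a log2 change of 2.91 ± 0.49, with its IRP1 arrays at 10.49 and 11.68 and its controls at 8.15 and 8.20. The chemokine Cxcl16, made by macrophages and dendritic cells, read 8.28 and 7.99 against 5.501 and 4.99 (2.89 ± 0.44). Fxyd5, a small regulator of the sodium pump, read 12.23 and 12.98 against 9.80 and 9.75 (2.83 ± 0.35). The IRP1 arrays of Shc1 were the farthest apart of these 3, and in none did the groups overlap. Calls of Shc1 and Cxcl16 were lost without control array 1 (adjusted p = 0.278 and 0.0568), and those of all 3 without IRP1 array 2. With values below log2 6 set to 6, Cxcl16 changed by 2.13 and Shc1 by 2.91, neither called (limma adjusted p = 0.399 and 0.204). Cxcl16 has a second probe set at 1.14 ± 0.38 without a call, and Shc1 one at 0.13 ± 0.25.

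Kcnf1, a modifying subunit of potassium channels, was near the floor in the controls (3.997 and 4.19) and read 6.61 and 7.08 with IRP1 (log2 change 2.75 ± 0.27, SE; limma adjusted p = 0.000127). With values below log2 6 set to 6, its change was 0.85 and not called. Apba3, an adaptor of the X11 family, read 9.51 and 10.11 against 7.46 and 7.15 (2.50 ± 0.43), and Tomm40, the pore of the mitochondrial import machine, 8.35 and 9.07 against 6.73 and 6.32 (2.19 ± 0.39). Both lost their call without any 1 of the 4 marrow arrays. Ormdl1, a regulator of sphingolipid synthesis, changed about as much (11.36 and 11.83 against 8.95 and 9.43, log2 change 2.40 ± 0.55) but was not called (adjusted p = 0.21). Fitted to the 4 marrow arrays alone it was called (adjusted p = 0.0148).

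A further group of 17 genes was called in marrow and not among those earlier names or the IRE lists. They are named here after their values were seen where they fall outside the 25 largest rises. Trp53inp2, which shuttles between nucleus and autophagosomes, read 10.80 and 10.997 with IRP1 and 7.98 and 8.42 in the controls (log2 change 2.698 ± 0.27, SE; limma adjusted p = 0.000143) and kept its call throughout. Ralgapa1, a GTPase activator for Ral, read 7.89 and 7.52 against 5.08 and 5.48 (2.43 ± 0.23, adjusted p = 0.000111), also called throughout. Its second called probe set changed by 1.81 ± 0.30, with the call lost without control array 1 (adjusted p = 0.52), and its brightest uncalled one by 1.45 ± 0.32. These were the genes outside both groups whose calls stood in every setting.

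The sorting protein Pacs1 read 10.07 and 10.74 with IRP1 against 7.67 and 8.03 (log2 change 2.55 ± 0.46, SE), and the transcriptional cofactor Ssbp3, which binds single-stranded DNA, 11.97 and 12.26 against 9.39 and 9.80 (2.52 ± 0.37). Tmem248, a membrane protein, read 10.53 and 10.41 against 8.23 and 8.65 (2.03 ± 0.35). Its other probe sets, the brightest among them, changed by 0.86 ± 0.29 and 0.66 ± 0.33 without a call. Rcan3, of the calcineurin regulator family, read 8.28 and 8.24 against 6.03 and 6.72 (1.89 ± 0.29). Uncalled probe sets changed by 1.68 ± 0.32 in Ssbp3 and, below the median signal, by 0.19 ± 0.16 in Rcan3. In the called probe set of each of these 4 genes the arrays separated by more than the gap within either reaction. Limma called them at adjusted p = 0.0362, 0.00577, 0.0269 and 0.00923, and all 4 calls were lost without IRP1 array 2 and without control array 1.

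Some of the called genes act on transcription or mRNA. Cdk9, the kinase of the elongation factor P-TEFb, read 12.22 and 12.36 with IRP1 against 10.29 and 10.54, a log2 change of 1.87 ± 0.33 (SE; limma adjusted p = 0.0282). Carm1, an arginine methyltransferase that modifies histones and splicing factors, read 10.13 and 10.28 against 8.73 and 9.15 (1.27 ± 0.20, adjusted p = 0.0121). Cnot6l, a deadenylase subunit of the CCR4-NOT complex, read 7.61 and 7.64 against 5.65 and 6.49 (1.56 ± 0.26), while its brightest probe set, not called, changed by 0.70 ± 0.26. Cramp1l, a nuclear protein, read 11.71 and 12.14 against 10.13 and 10.30 (1.71 ± 0.31). Uncalled probe sets changed by 1.06 ± 0.34 in Cdk9 and by 0.33 to 1.29 in Cramp1l. The next statement is about the called probe sets. No arrays overlapped, but each of these 4 calls was lost without control array 1 (adjusted p = 0.318 to 0.541).

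The other 7 called genes changed by 0.98 to 1.79 on the log2 scale. Atl3, which shapes the tubules of the endoplasmic reticulum, changed by 1.79 ± 0.29 on the log2 scale by 1 of its 5 probe sets, the other 4 changing by 0.07 to 0.32. Tbc1d23, a tether of endosome-derived vesicles at the Golgi, changed by 1.66 ± 0.25 by its dimmest of 3, and by 0.76 and 1.06 by the others. Mpv17l2, a mitochondrial protein needed for ribosome assembly, changed by 1.61 ± 0.28, and the lipid kinase Dgkh by 1.203 ± 0.20. Entr1, which works with endosomal recycling, changed by 0.98 ± 0.18 and was the single called probe set below 2-fold. Its call was lost in 9 of the 10 alternative settings, the replicate block among them (adjusted p = 0.128). Dnhd1, related to dynein heavy chains (1.06 ± 0.19), and Ano8, of the anoctamin family (1.01 ± 0.18), were dim, at 5.51 and 5.24 and at 3.64 and 3.90 in the controls. In all 7 the IRP1 arrays lay above the controls, and in all 7 limma lost the call without control array 1 and without IRP1 array 2. With values below log2 6 set to 6, all 7 lost their call. The changes of Tbc1d23, Dnhd1 and Ano8 were then 0.77, 0.44 and 0 (all arrays of Ano8 being below 6). Those of Atl3, Mpv17l2, Dgkh and Entr1 were 1.79, 1.61, 1.195 and 0.98 (limma adjusted p = 0.111, 0.154, 0.0527 and 0.077). Uncalled probe sets changed by 0.26 and 0.85 in Dgkh, by 0.01 to 0.52 in Entr1 and by 0.10 in Dnhd1.

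**Figure D3:**
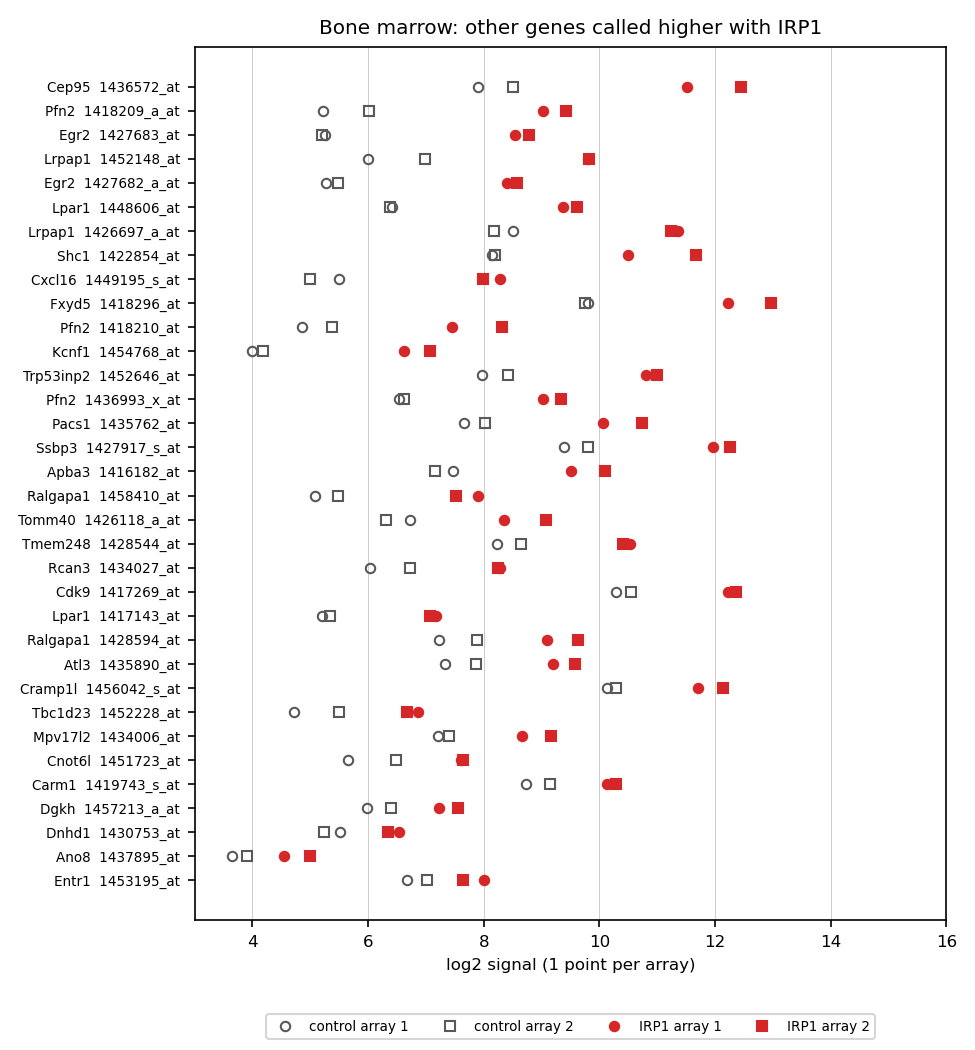
Log2 signal of each of the 4 bone marrow arrays (x axis) for each probe set with 1 symbol called higher outside the IRE lists (rows, gene and probe set, by falling change), controls as open grey and IRP1 as filled red symbols, circles for array 1 and squares for array 2. The gap between reactions shrinks from 3.78 for Cep95 to 0.98 for Entr1 on the log2 scale, and no row overlaps.

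Because an IRE of the 5′ UTR type lies close to the start of its mRNA, the first 50 transcribed bases of the called genes were searched for CAGTG, the first 5 letters of the IRE's hairpin loop, in RefSeq start-site windows (GRCm38.p6). Windows were held for 27 of the 34 called genes (45 windows). The motif was found in 3 of these windows (6.67%), 1 in each of 3 genes, and in 7.2% of all 32851 windows (6.66% for the opposite strand, CACTG). With a C and then 5 bases before the motif, as the bulged C of an IRE is placed, 1 called gene and 1.58% of all windows had a match. The 3 stretches are shown because they are the matches among called genes, with the motif in capitals:

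Apba3: tgcgcaatagtcctggatggtgCAGTGacc

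Cramp1l: tggtgctgttggCAGTGctggttctgggaa

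Pacs1: cgcccaccCAGTGtctgggcctcgcgggcc

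They lie at chr10:81268192-81268221 (plus strand), chr17:25015194-25015223 (minus strand) and chr19:5273090-5273119 (minus strand), and that of Pacs1 has the C. Of the 5 positions on each side that would pair in a hairpin, 3 of 5 could pair in Cramp1l, each as G-U. In Pacs1 2 of 5 could pair, each as G-C, and in Apba3 1 of 2 inside the window, also as G-C. None of the 3 is a gene of the IRE lists, and the windows held for Fth1 and Alas2, whose 5′ UTR IREs are established, gave no match in these 50 bases, so the search does not recover known sites. A match describes letters and is not a site, and IREs farther from the start or in the 3′ UTR were not searched here.

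Of the 12 called probe sets without a single symbol, 3 are those of ferritin light chain. The probe set shared by Hjurp, a centromeric chaperone, and a pair of uncharacterized transcripts read 9.38 and 9.50 with IRP1 against 7.61 and 8.29 (log2 change 1.49 ± 0.25, SE; limma adjusted p = 0.0225), and its call was lost without control array 1. The 8 without a symbol changed by 1.33 to 3.19. Those called throughout were 1447227_at, which read 9.12 and 9.79 against 6.06 and 6.46 (3.19 ± 0.38), and 1447494_at, at 7.46 and 7.63 against 5.31 and 5.01 (2.38 ± 0.22).

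Different probe sets of 1 gene often gave different answers. The 34 called genes have 86 probe sets, of which 45 were called and 41 were not, 14 of the latter with a mean log2 signal below 6 in both reactions. Among the 26 genes with several probe sets, all were called in 5 (Egr2, Fth1, Pfn2, Slc40a1 and Tfrc), and 21 had at least 1 that was not. Why the probe sets of a gene differed was not tested.

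Lower signals with IRP1 were rare. Blmh, the cytosolic protease bleomycin hydrolase, read 9.16 and 9.27 with IRP1 and 10.24 and 10.48 in the controls (log2 change -1.15 ± 0.21, SE; limma adjusted p = 0.0332). It changed by -0.98 to -1.55 in the other tissues. Wwc1 (KIBRA), a scaffold of the Hippo pathway, read 6.61 and 7.14 against 8.50 and 8.07 (-1.41 ± 0.23, adjusted p = 0.0133) and changed by -0.52 to 0.19 elsewhere. Both pairs of arrays were apart, as in 11.8% of all probe sets in this direction. The call of Blmh was lost without any 1 of the 4 marrow arrays, and that of Wwc1 without control array 1 (adjusted p = 0.36) and without IRP1 array 1. At an unadjusted p under 0.05, 1472 probe sets were higher and 776 lower.

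Genes that handle iron without a known IRE gave no call. Of 32 such genes measured by their brightest probe set, 0 were called in either direction by limma, where 0.148% of all genes were called higher, and a count of 0 is near that background. At an unadjusted p under 0.05, 4 of the 32 stood higher (12.5%) and 0 lower, against 3.63% of all genes higher. The median log2 change was 0.16 (range -0.34 to 0.68), and 0.10 without control array 1. The largest was that of Abcg2, a porphyrin exporter, which read 11.17 and 11.50 with IRP1 and 10.51 and 10.78 in the controls (0.68 ± 0.25, SE; adjusted p = 0.905). The hemochromatosis gene Hfe stood at 0.50 ± 0.23, the endosomal heme transporter Slc48a1 at 0.50 ± 0.21 and the mitochondrial transporter Abcb10 at 0.48 ± 0.22, none called. Without control array 1 these stood at 0.27, 0.22 and 0.42. The 10 measured IRPs and regulators of IRPs had a median of 0.14, led by Aco1, which encodes IRP1 itself, at 0.28 ± 0.27 with overlapping arrays (-0.03 without control array 1). Of the 8 genes of the transferrin receptor's endosomal cycle, 0 were called (median 0.25). Rab11a, which returns the receptor to the surface, read 11.04 and 11.13 with IRP1 against 10.10 and 10.60 (0.73 ± 0.30, adjusted p = 0.929), and Snx3, a sorting nexin of that route, stood at 0.39 ± 0.24.

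The steps of heme synthesis other than Alas2 gave no call either, and counts of 0 here are again near the background of 0.148%. Of 9 measured genes 0 were called (median 0.20), from Ppox at -0.29 to Clpx, a mitochondrial chaperone that acts on ALAS, at 0.49 ± 0.33. Cpox stood at 0.46, Urod at 0.35 and Uros at 0.32 on the log2 scale, and at 0.14, 0.19 and 0.21 without control array 1. Alas2 at 2.41 was thus the called gene of the pathway. Of 12 genes of mitochondrial iron-sulfur assembly (median 0.15), 18 of the hypoxia response apart from Epas1 (median -0.02), 15 of the TCA cycle (median 0.16) and 34 nuclear-encoded complex I subunits (median 0.13), 0 were called in each list. In these lists, the iron and transferrin lists above and the ribosomal and reference genes below, 10 lists in all, limma gave 8 members higher and 0 lower at an unadjusted p under 0.05. By the same measure 660 of 18193 genes were higher and 317 lower. Without control array 1 the medians of these 10 lists ran from -0.11 (hypoxia) to 0.19 (transferrin receptor cycle), and that of all genes was 0.01. The complex I subunit Ndufc2 was 1 of the 8, at 0.68 ± 0.24 with its arrays apart (12.86 and 12.91 against 12.06 and 12.36).

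Abundant mRNAs of marrow cells gave the background of the pull-down. The 46 ribosomal protein genes had a median log2 change of 0.14, with 39 above 0 and 0 called. The 10 reference genes had 0.29, all above 0 and 0 called, among them Rplp0 at 0.60 ± 0.33 and Actb at 0.31 ± 0.37. Medians of all probe sets climbed with control signal, from 0.00 below log2 6 (26291 probe sets) through 0.15 between 8 and 10 to 0.21 above 12 (578 probe sets). Its part in the changes of bright genes was not tested, and the called changes of Fth1, Alas2 and Tfrc above 12 were 1.55 to 2.41.

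Lineage markers stayed uncalled too. With 0.148% of all genes called higher, a count of 0 in lists of this size is near the background. The 23 erythroid markers had a median log2 change of 0.31 (range -0.12 to 0.47), with 0 called. Among them the anion exchanger Slc4a1 read 14.13 and 14.19 with IRP1 against 13.44 and 13.98 (0.45 ± 0.26), and the erythroid regulators Klf1 and Gata1 stood at -0.12 and 0.26. Without control array 1 their median was 0.11 and Slc4a1 stood at 0.18. The mean of the 23 markers was 10.26 and 10.60 in the controls and 10.60 and 10.75 with IRP1. The 16 neutrophil markers had a median of 0.27, between the elastase Elane (-0.72 ± 0.26) and the arginine deiminase Padi4 (0.73 ± 0.19), with means of 12.24 and 12.52 in the controls and 12.45 and 12.79 with IRP1. Both markers had their arrays apart, and limma called neither (adjusted p = 0.892 and 0.345). Control array 1 was the lowest array in both lists.

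Medians were 0.19 for 15 monocyte and macrophage markers, 0.11 for 13 of the B lineage, 0.07 for 7 of T and NK cells, 0.10 for 9 of megakaryocytes, 0.09 for 10 of stem and progenitor cells and 0.22 for 7 of eosinophils, basophils and mast cells, each with 0 called. Without control array 1 these medians ran from -0.17 (B lineage) to 0.10 (eosinophils, basophils and mast cells). The 9 markers of stroma and osteoblasts had a median of 0.08, with an exception in Cxcl12, the chemokine that holds stem cells in the marrow. It read 10.52 and 11.09 with IRP1 and 8.95 and 9.20 in the controls (log2 change 1.73 ± 0.42, SE; 3.31-fold), with the arrays apart. Limma did not call it (adjusted p = 0.284), and without 2 spleen arrays of low hybridization controls it did (adjusted p = 0.0249). Of osteoclast (7), adipocyte (5), endothelial (7), skeletal muscle (8), hepatocyte (6), enterocyte (5), neuron and glia (6) and pancreatic acinar (5) markers, 0 were called in each. Over the 17 marker lists limma gave 8 of 158 members higher and 5 lower at an unadjusted p under 0.05. By the same measure 660 of all 18193 genes were higher and 317 lower. Of the lists of cells from other tissues, Mylpf, a muscle myosin light chain, had the lowest value (-0.78 ± 0.19) and Alpi, an intestinal phosphatase, the highest (0.95 ± 0.98), neither called.

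**Figure D4:**
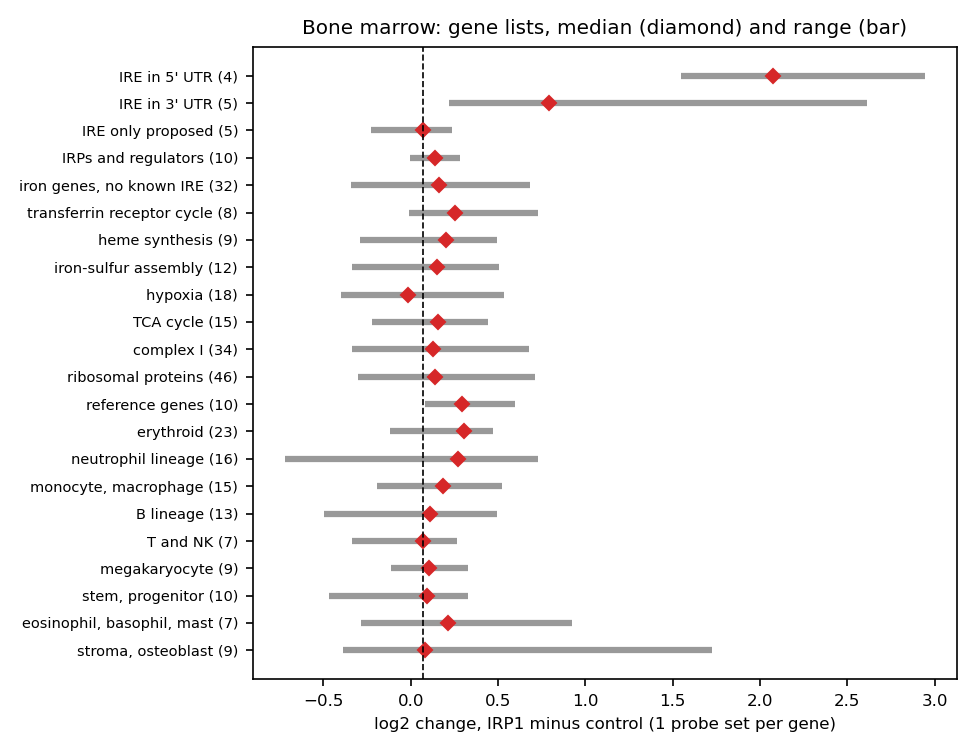
Median (red diamond) and range (grey bar) of the log2 change, IRP1 minus control, in bone marrow for 22 gene lists (rows, number of genes measured in brackets; the earlier-named genes and 8 marker lists given in the text are not drawn), with 1 probe set per gene; the dashed line is the median over all genes, 0.07. The 5′ UTR IRE list has its median at 2.08 and its lowest gene at 1.55, while the medians of the rows other than the 2 established IRE ones lie between -0.02 and 0.31.

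Most probe sets that rose in marrow were also called higher in another tissue. Of the 57 probe sets called higher in marrow, 53 changed above 0 in all 4 other tissues, where 11.3% of all probe sets did, and 37 were called higher in at least 1 of them, against 0.191% of all. In 6 the call was made in all 4: 2 of Tfrc, 2 of Lpar1 and 1 each of Cep95 and Lrpap1. The 57 had median log2 changes of 1.38 in duodenum, 1.03 in liver, 1.61 in spleen and 1.38 in brain, with no test, and the marrow median of 2.41 is that of the contrast that chose them. Marrow gave 57 calls, against 36 in duodenum (0.0799%), 41 in liver (0.091%), 31 in spleen (0.0688%) and 39 in brain (0.0866%). The tissues do not share control arrays, but their calls come from the same limma fit, with a common variance estimate for each probe set. A probe set with a small spread is therefore called more readily in marrow and in the other tissues alike. The overlap of calls is thus not a comparison of independent tests, while the sign of a change does not depend on that variance.

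In 20 of the 57 no other tissue made a call. They include both Fth1 probe sets, the brighter Epas1 one, Pacs1, Ssbp3, Apba3, Tmem248, Cdk9, Atl3, Cramp1l, Cnot6l, Carm1, Dgkh, Dnhd1 and Entr1. Most were still positive elsewhere. Apba3, for instance, changed by 1.38 to 2.28 and Fth1 by 0.54 to 1.24 on the log2 scale. Carm1 was close to 0 in each (-0.07 in duodenum, 0.12 in liver, 0.19 in spleen and about 0 in brain), as was Entr1 (0.19, -0.05, 0.01 and 0.13).

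A call in marrow and not elsewhere does not show a difference, so the difference of the marrow change from the mean change of the other 4 tissues was tested. Limma called 1 of 45037 probe sets (0.00222%) larger in marrow and 0 smaller (0%), with 3236 larger and 1290 smaller at an unadjusted p under 0.05. The one called was the dimmest Tfrc probe set, whose log2 change was 3.95 in marrow and 1.44 in duodenum, 1.25 in liver, 2.53 in spleen and 0.72 in brain. Its difference was 2.47 (adjusted p = 7.12e-05). Its control signal was low everywhere, 4.27 in marrow and 3.78 to 4.199 elsewhere. The difference was called in each of the 14 fits made and ran from 2.11 to 2.57. The other Tfrc probe sets differed by 1.26 and -0.42 without a call (adjusted p = 0.494 and 0.613).

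Other differences were large but not called. Epas1 differed by 2.00 by its brighter probe set (limma adjusted p = 0.425) and by -1.25 by its dimmer one. Slc40a1 differed by 1.29 by its dimmer probe set and 0.49 by its brighter one, Trp53inp2 by 1.54 and Carm1 by 1.21. The 3 Pfn2 probe sets differed by 1.49, 0.59 and 0.88. The leading Pfn2 probe set changed by 2.40 to 2.95 in duodenum, liver and spleen. In brain, where its control signal was 13.26 (5.61 in marrow), it changed by 0.27. Alas2 differed by 0.24 (2.41 in marrow and 1.72 to 2.80 elsewhere; adjusted p = 0.862). Its marrow IRP1 arrays lay close to the top of the scale, which limits what this difference can show. Wwc1 changed by -1.13 relative to the other tissues. Of the 57 probe sets, 55 had a larger change in marrow than the mean of the other tissues, which the choice by marrow calls favours, and 2 a smaller one, the brightest Tfrc (-0.42) and the dimmer Lpar1 (-0.86).

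Some genes named as enriched by the earlier analysis were not called in marrow and changed more in another tissue. Ppp1r1b, the phosphatase inhibitor DARPP-32 of dopamine-responsive neurons, read 7.11 and 7.02 with IRP1 and 6.86 and 6.81 in marrow controls (log2 change 0.23 ± 0.27), against 2.41 in duodenum and 3.21 in brain. The leading Lnx1 probe set, for a ubiquitin ligase, read 3.59 and 3.48 against 3.82 and 3.61 in marrow (-0.19 ± 0.20), against 2.11 in duodenum and 2.20 in brain. Gstm6, a glutathione transferase, changed by -0.42 ± 0.27 in marrow and 2.14 in duodenum, and Dlg2, a synaptic scaffold, by -0.06 to 0.77 over 3 probe sets in marrow and up to 3.33 in brain. In marrow the Lnx1 and Dlg2 probe sets with these elsewhere changes were at or near the floor of the scale, at 3.48 to 4.56, while Ppp1r1b was not. These were contrasts chosen for their values and were not tested on their own.

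**Figure D5:**
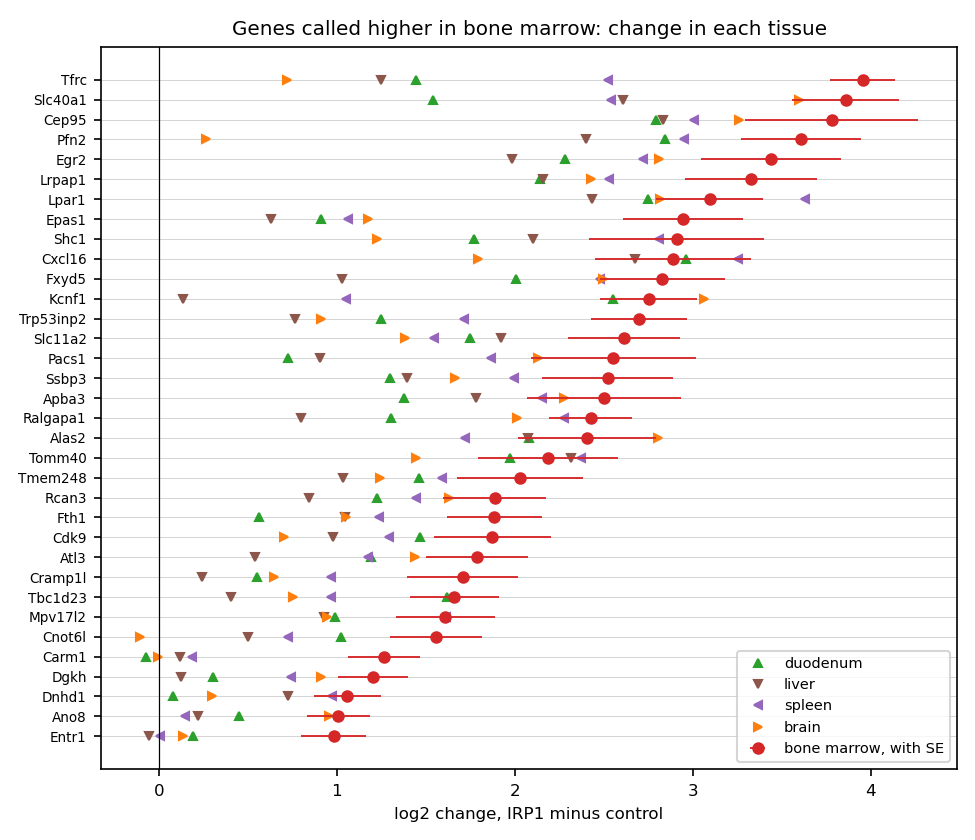
Log2 change, IRP1 minus control (x axis), for each of the 34 genes with 1 symbol called higher in bone marrow (rows, by falling marrow change, each gene by its called probe set with the largest marrow change); red circles with SE bars are bone marrow and triangles the other 4 tissues. Most triangles lie to the right of 0 and left of the marrow circle, those of Carm1 lie between -0.07 and 0.19, and those of Lpar1 reach 3.63 in spleen.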

How the data were processed

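The values are log2 signals, 1 for each probe set and array, deposited by the authors. Per the submitters' processing notes and the series design, these came from RMA, or from MAS5 (GCOS) with later quantile normalization. Which made the table is not given in the sources used here. Values near the top and the floor of the scale compress changes.

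Of 45101 probe sets, 64 controls were left out and 45037 tested. The platform annotation gives 1 symbol to 34945 (18193 genes), several to 932 and none to 9160. Through Entrez IDs 34754 matched RefSeq, and 0 symbols changed. Samples were grouped by title. Nothing was filtered or added before the fit. Limma 3.58.1 in R 4.3.3 fitted 10 groups of 2 to all 20 arrays (10 residual and 6.14 prior degrees of freedom; 2 from marrow alone). An exact permutation test of 2 against 2 arrays cannot go below p = 0.333. Contrasts were IRP1 minus control in marrow, and that change minus the mean of the other 4 tissues. P-values are two-sided, Benjamini-Hochberg adjusted over 45037 probe sets, and called under 0.05. In lists each gene counts once, by whichever probe set is brightest over the 4 marrow arrays.

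Named were the 25 genes with the largest increase and up to 10 with the largest decrease (called, at least 2-fold, 1 symbol, arrays apart), all members of the 3 IRE lists and of the earlier-named list, up to 4 of each other list, and the genes of the difference by the same rule. Others are said to be chosen after their values were seen. Members and lists were chosen with earlier results of these data known.

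The fit was tested on simulated data for the marrow contrast: with 200 of 45037 probe sets changed, it found 100% at a log2 change of 2, 58.2% at 1 and 2.99% at 0.5. The simulated noise of a probe set was independent and of equal spread on every array. No array was set apart as control array 1 is, and no top or floor was imposed, so these shares hold for that setting only. Alternatives were other normalizations, a filter, a floor, other fits and leaving out arrays. Figures were drawn with matplotlib 3.10.9.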

Additional observations from a re-analysis of the deposited data

Results flagged for a closer look

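Of the results described above, the dimmest Tfrc probe set in bone marrow differed between groups by a test of the difference itself: its log2 change with IRP1 exceeded the mean change of the other 4 tissues by 2.47 (limma adjusted p = 7.12e-05). Both IRP1 arrays lay above both controls in marrow (8.33 and 8.12 against 4.25 and 4.29). The probe set shared by Hjurp and other transcripts changed by 1.49 in marrow and by -0.53 in liver, and the difference between these was not tested.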

How the results depend on the processing

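The number of probe sets called higher in marrow (57) was 53 to 68 with quantile normalization, median centring, cyclic loess, the filter on dim probe sets, the floor, the fit to the 4 marrow arrays alone and the variance trend with a robust prior, 50 with array weights and 95 without the 2 spleen arrays of low hybridization controls. Leaving out 1 marrow array gave 21 to 118 (39 without IRP1 array 1). The number called lower (2) became 4 with cyclic loess, 0 with the marrow arrays alone, 1 with array weights and 0 to 180 without single arrays. For the difference from the other tissues, the floor gave 67 larger and 17 smaller, cyclic loess 1 smaller, and leaving out single arrays 1 to 104 larger and 0 to 173 smaller. Of the 53 called higher with the floor, 23 were among the 57, and of the 53 with the marrow arrays alone, 40 were. On every array, 17360 probe sets lie at or under the floor.

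Same-numbered arrays of both reactions did not deviate together in marrow (r = -0.0389; -0.0742 to 0.533 in the other tissues), so the numbers were not taken as a pairing; the spleen, duodenum (0.272) and brain (0.119) values were higher. With the replicate block, 83 were called higher (56 of them among the 57) and 4 lower, and the difference counts were 1 and 0. The block called 1 further named probe set, of Slc11a2 (adjusted p = 0.0109), and lost 1, of Entr1 (adjusted p = 0.128).

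Over 202 named probe sets and all settings, 2621 values stayed on their side of the threshold, 180 lost a call, 9 gained one and 0 called values reversed. Among the 2621, 61 values called in neither fit changed sign. Medians of all changes ran from -0.00 with quantile normalization to 0.10 with the filter, against 0.05. Signals near the floor or the top limit what dim genes such as Hao1 and bright ones such as Fth1 can show.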
